A study of Mus musculus with 20 samples.

Results

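The nuclear genes for the subunits of the mitochondrial respiratory chain and the ATP synthase were described in frontal cortex and hippocampus of mice with intact Ncs1 (Ncs1+/+, wild type) and of mice labelled as homozygous for its knockout (Ncs1-/-, knockout). Members were chosen by gene symbol, namely symbols that begin with Nduf followed by a, b, c, s or v and a digit, with Sdha to Sdhd, with Uqcr, with Cox and a digit of the cytochrome oxidase subunits, or with Atp5, and 2 symbols marked as pseudogenes (Cox7c-ps1 and Ndufs5-ps) were left out. This gave 84 of the 17880 symbols listed in the 2 count tables. By prefix, 38 belong to complex I, 4 to complex II, 8 to complex III, 17 to complex IV (cytochrome c oxidase) and 17 to complex V (ATP synthase). The rule used no measured value.

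The respiratory chain passes electrons from NADH through complex I, or from succinate through complex II, to ubiquinone, then through complex III and cytochrome c to complex IV, where oxygen is reduced. Complexes I, III and IV pump protons across the inner mitochondrial membrane, and complex V uses the resulting gradient to make ATP. Neurons depend on this route for most of their ATP. Complex II is built from nuclear genes alone, whereas the other complexes also hold subunits encoded in mitochondrial DNA. Of the listed symbols, 0 begin with mt-, and other names for these subunits were not searched.

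All 20 libraries came from C57Bl6/J mice and formed 4 groups of 5, 1 for each pairing of genotype (wild type or knockout) with region. The labels state neither age nor sex, how the Ncs1 allele was made, nor whether each library is a different animal. The p-values therefore measure only how far these samples spread, and that spread may be technical. Total counts ranged from 16.6 M to 34.6 M per library, and the members took 0.582% to 0.759% of them. Ncs1, the targeted gene, went from 369 ± 18.1 to 259 ± 3.33 CPM in cortex of the knockout, 70.3% of wild type, and from 439.9 ± 17.6 to 299 ± 21.6 CPM in hippocampus, 68.0% of wild type (SD, n = 5 each). The groups did not overlap in either region, and most of the Ncs1 RNA was still counted in the libraries labelled knockout. Whether the counted reads lie outside the altered part of the gene was not tested. Levels in CPM are counts per M counts of a library after TMM scaling (a per-library factor from edgeR) over the 20 libraries. Neuron markers, 10 of 10 listed, summed to 9235 to 12523 CPM per library. The library descriptions in the labels end in one lane tag for all cortex libraries and in another for all hippocampus libraries, so region and lane cannot be told apart. In bulk tissue, fewer cells of a type and less RNA per cell cannot be told apart either.

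Many respiratory chain genes are known targets of nuclear respiratory factor 1 (NRF1) and of GA-binding protein, an ETS factor also called NRF2. RefSeq promoter windows (GRCm38.p6), which run from 250 bases before to 50 bases after a gene's start, were matched for 68 of the 84 members. The NRF1 motif, a palindrome that reads alike on both strands, was present in 5 of the 68 windows (7.35%), against 1.07% of 27025 genes. The ETS letters CCGGAAG, on either strand, were present in 17 (25.0%), against 9.93% of genes. The YY1 motif, on either strand, was present in 5 (7.35%), against 0.995%. The letters GGGCGG (SP1), CCAAT and TATAAA, on either strand, were present in 41.2%, 44.1% and 11.8% of the members, against 38.2%, 41.1% and 15.7% of genes. A match is a description of letters and not a bound site. The stretches below hold a match and no annotated exon, with 1 example from each complex, and are shown because these letters were found in a larger share of the members than of all genes. Each runs 5′ to 3′ on the gene's own strand, with the NRF1 motif (Ndufa11, Cox6a1) or the ETS letters or their reverse complement (Sdhd, Uqcr11, Atp5e) in capitals.
Ndufa11, chr17:56717686-56717756, plus strand: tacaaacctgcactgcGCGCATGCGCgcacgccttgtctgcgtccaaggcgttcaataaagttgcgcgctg
Sdhd, chr9:50603850-50603909, minus strand: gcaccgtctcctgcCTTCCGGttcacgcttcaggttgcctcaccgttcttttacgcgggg
Uqcr11, chr10:80406836-80406932, minus strand: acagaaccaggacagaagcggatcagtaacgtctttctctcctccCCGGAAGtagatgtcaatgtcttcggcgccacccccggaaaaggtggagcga
Cox6a1, chr5:115349066-115349129, minus strand: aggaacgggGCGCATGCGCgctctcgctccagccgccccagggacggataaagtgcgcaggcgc
Atp5e, chr2:174464152-174464248, minus strand: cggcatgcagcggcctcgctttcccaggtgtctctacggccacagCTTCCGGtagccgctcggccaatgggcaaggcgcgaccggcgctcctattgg

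Levels of different genes were compared per length, as CPM per kb of exon (the median exonic length of a gene's transcripts in GENCODE M21). Atp5b, the catalytic beta subunit of the ATP synthase, was the most abundant member, at 411 CPM per kb as the mean of the 4 groups. It was followed by Cox4i1, the ubiquitous form of the largest nuclear subunit of complex IV, at 374, and by Cox8a, a small subunit of complex IV, at 293 CPM per kb. Ndufa4, first assigned to complex I and now known as a subunit of complex IV, was the highest of the Nduf genes at 214 CPM per kb. In complex III the highest was Uqcrh, the hinge protein, at 145, and in complex II Sdha, the flavoprotein that oxidises succinate, at 114 CPM per kb. Sdha stood above Sdhb (60.3), Sdhd (50.5) and Sdhc (33.5 CPM per kb), its partners in the same complex. The lowest members were Ndufa4l2 (1.57) in complex I, Uqcrb (55.7) in complex III, Cox7b2 (0.413) in complex IV and Atp5g1 (11.3 CPM per kb) in complex V. The rank of Atp5g1 depends on its annotated length of 2675.5 nt, since in CPM it stood above Atp5g2 in every library. The median member stood at 48.9 CPM per kb in complex I, 55.4 in complex II, 76.3 in complex III, 89.2 in complex IV and 98.0 in complex V.

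Several subunits have paralogues, and the tissue-restricted forms were a small part of the summed level per length in both regions and genotypes. Cox4i2, the oxygen-responsive form of subunit 4, made up 0.371% ± 0.119 of the pair's level in wild-type and 0.478% ± 0.172 in knockout cortex, and 0.335% ± 0.0739 and 0.252% ± 0.0802 in hippocampus (SD, n = 5 each). Cox6a2, the heart and muscle form of subunit 6a, made up 1.29% ± 0.125 in wild-type cortex and 0.776% ± 0.210 in wild-type hippocampus. Cox6b2, the testis form of subunit 6b, made up between 0.633% and 1.10% in the 4 groups. Ndufa4l2, a relative of Ndufa4 known to be induced by low oxygen, made up between 0.607% and 0.831%. The 3 genes Atp5g1, Atp5g2 and Atp5g3 encode the same mature ring subunit of the ATP synthase. Atp5g3 gave 77.2% ± 0.927 of their summed level in wild-type cortex and 77.7% ± 0.619 in wild-type hippocampus, and Atp5g2 17.8% ± 1.14 and 16.9% ± 0.668 (SD, n = 5 each). The share of Atp5g1, 4.93% ± 0.297 and 5.35% ± 0.0796, depends on an annotated length of 2675.5 nt, far above the 586 nt of Atp5g2 and 718.5 nt of Atp5g3. In the subunit 7a family, Cox7a2 gave 56.7% ± 0.652 in wild-type cortex and 54.0% ± 1.37 in wild-type hippocampus. Its relative Cox7a2l gave 42.9% ± 0.797 and 45.3% ± 1.47, and Cox7a1, the muscle form, gave under 1% in each group.

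**Figure D1:**
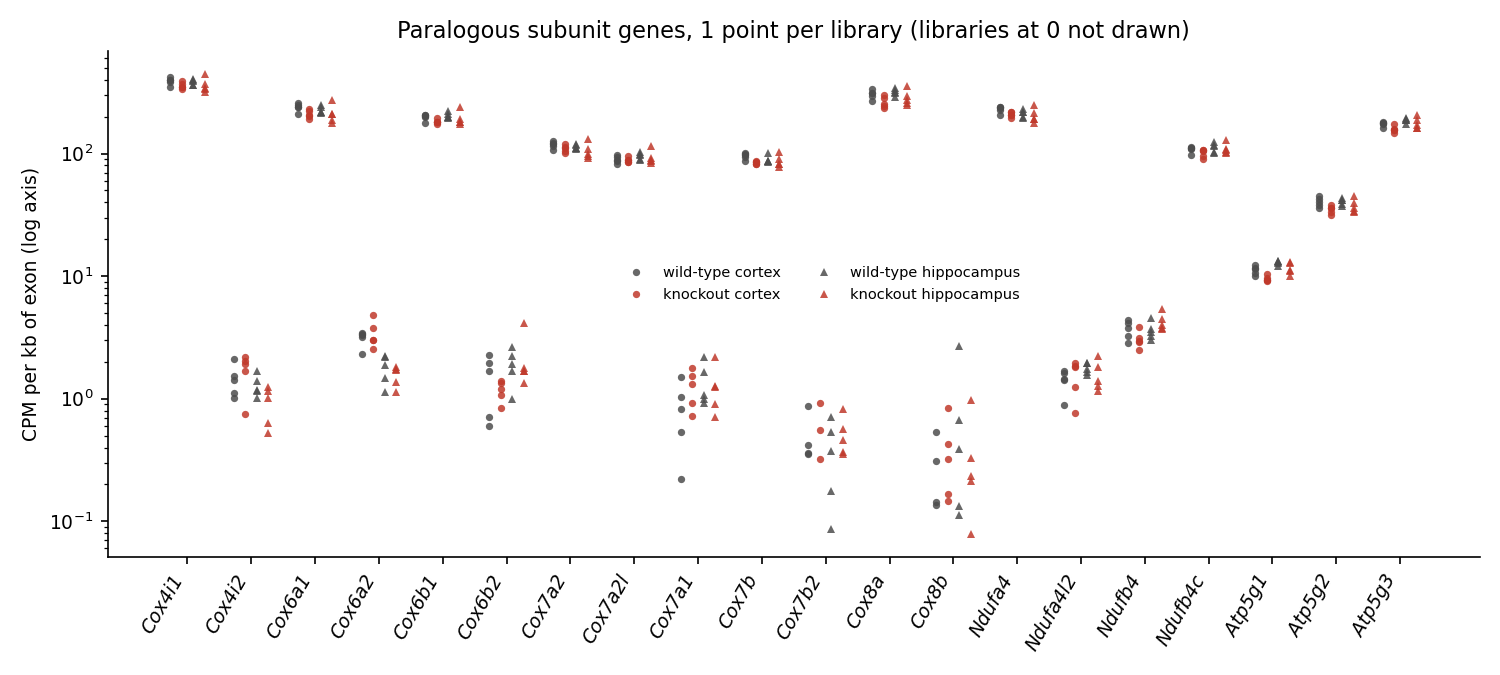
Levels of paralogous subunit genes in CPM per kb of exon (log axis), 1 point per library, with circles for cortex, triangles for hippocampus, grey for wild type and red for knockout. The tissue-restricted forms Cox4i2, Cox6a2, Cox6b2, Cox7a1, Cox7b2, Cox8b and Ndufa4l2 lie far below their partners in all 4 groups, and libraries at 0 are not drawn.

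Of the members, 3 were too low to be tested in cortex and 2 in hippocampus. Cox8b, a heart and muscle form, averaged 0.0815 CPM in wild-type cortex, and Cox7b2, a testis form, averaged 0.217 CPM, and both failed the filter on low counts in either region. Cox7a1 averaged 0.361 CPM in wild-type cortex, where it failed, and passed in hippocampus. Counts that were not whole numbers, which can arise when reads are shared among genes, occurred for 32 members. Cox7c at 8.18 ± 0.638 CPM, Ndufs5 at 13.1 ± 2.13 CPM and Ndufb4 at 3.58 ± 0.613 CPM in wild-type cortex (SD, n = 5) carried such values in all 20 libraries, as did Ndufb4c, Cox4i1, Cox7a2l, Atp5pb, Ndufs1 and Uqcrc2. How the reads of these 9 members were shared with other genes was not tested, so their values are uncertain. Ndufb4c, a copy of Ndufb4, held 42.2 ± 2.25 CPM in wild-type cortex, 96.7% of the pair per length. Of all members, 13 overlap another gene on the opposite strand, among them Ndufa13 (Tssk6), Ndufa2 (Tmco6), Atp5md (Taf5), Atp5j (Gabpa), Cox4i2 (Bcl2l1) and Cox6a2 (Itgad). The counting is not stated to use strand, so reads of these pairs cannot be told apart.

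In cortex the knockout was compared with wild type to see whether the Ncs1-/- genotype goes with a shift of the respiratory chain genes. No member passed: 0 of 81 tested members had an adjusted p under 0.05 in edgeR's quasi-likelihood test with Benjamini-Hochberg adjustment over all genes, where 0.027% of 14823 genes passed (4 genes). The fitted differences nevertheless lay on one side, with 78 of the 81 members below 0 and a median of -0.12 (log2, knockout over wild type), against 49.4% of all genes below 0 and a median of 0.00. At an unadjusted p under 0.05, 41 members were lower and 0 higher, where 6.75% of all genes were lower and 8.08% higher. In 5 members, Ndufs6, Cox5a, Cox7b, Atp5md and Atp5mpl, the highest knockout library was below the lowest wild-type one, which held for 1.34% of all genes. DESeq2 called 3 members lower (Cox5a, Cox7b and Ndufa13), with 1.14% of genes called by that tool, and limma-voom called 0.

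**Figure D2:**
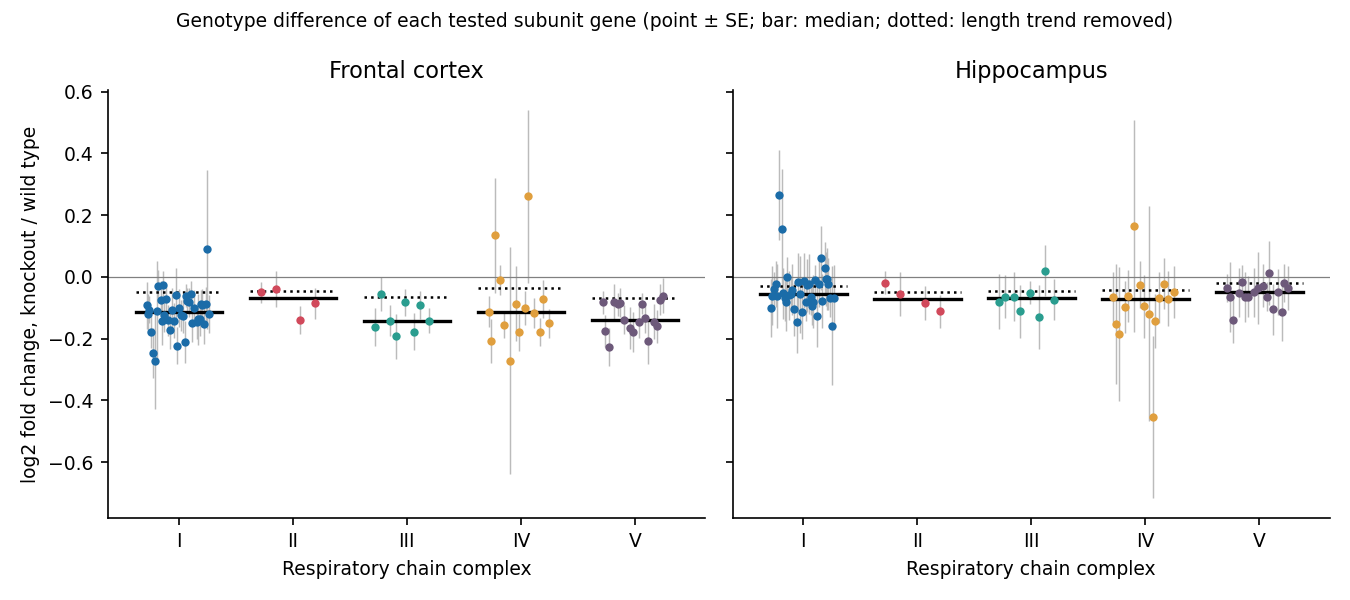
Log2 fold change of each tested subunit gene, knockout over wild type, by complex, with the standard error as a grey line, in cortex (left) and hippocampus (right). Solid bars are medians of a complex (-0.07 to -0.14 in cortex, -0.05 to -0.07 in hippocampus) and dotted bars are the medians after removal of each library's length trend, which lie nearer to 0 in every complex and both regions.

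In complex I the median was -0.11, with 37 of 38 members below 0 and 15 at an unadjusted p under 0.05. The 7 core subunits, which carry the flavin and iron-sulphur clusters, had a median of -0.08 and 0 members under that p, and the 31 accessory subunits a median of -0.13 and 15. Core subunits have longer transcripts, with a median of 1312 nt against 645 nt. Ndufa13, an accessory subunit also known as Grim19, was at 51.4, 51.0, 45.9, 49.9 and 44.3 CPM in wild-type libraries 1 to 5 and at 45.9, 40.3, 38.5, 39.3 and 43.3 CPM in knockout libraries 1 to 5. Only the first knockout library reached the wild-type range. The difference was -0.22 (log2, SE 0.06, adjusted p = 0.219 in edgeR). Ndufc2, an accessory subunit of the membrane arm, differed by -0.18 (SE 0.05, adjusted p = 0.235 in edgeR). The core subunits Ndufs1 and Ndufv1, which hold iron-sulphur clusters and the NADH site, stood at 121 ± 4.17 and 101 ± 3.77 CPM in the wild-type libraries and at 116 ± 5.39 and 95.5 ± 4.02 CPM in the knockout ones (SD, n = 5 each).

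Complex II had the smallest median of the 5 complexes, -0.07, with 4 of 4 members below 0 and 1 under an unadjusted p of 0.05. That member was Sdhb, the iron-sulphur subunit, at 74.2, 71.7, 70.8, 72.4 and 66.3 CPM in wild-type and 69.5, 61.7, 65.0, 61.9 and 63.8 CPM in knockout libraries. The groups overlapped only through wild-type library 5 and knockout library 1, and the difference was -0.14 (SE 0.05, adjusted p = 0.239 in edgeR). Sdha differed by -0.05 (SE 0.04), Sdhc by -0.04 (SE 0.06) and Sdhd by -0.09 (SE 0.05), the last 2 being the membrane anchors. Complex II has the longest transcripts of the 5 complexes, with a median of 1612 nt. With the length trend removed from each library its median was -0.0443 and no longer the smallest, since complex IV stood at -0.0365.

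Complex III had a median of -0.14, with 8 of 8 members below 0 and 5 under an unadjusted p of 0.05. Uqcrc1, a core protein of the matrix side, was at 139.8, 130.0, 140.1, 137 and 127 CPM in wild-type and 129, 118, 119, 120.4 and 122 CPM in knockout libraries, and the ranges touched only through wild-type library 5 and knockout library 1. It differed by -0.14 (SE 0.04, adjusted p = 0.230 in edgeR). Uqcr11, a small subunit, differed by -0.18 (SE 0.06, adjusted p = 0.243 in edgeR). The Rieske protein Uqcrfs1, which passes electrons to cytochrome c1, differed by -0.06 (SE 0.05).

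Complex IV had a median of -0.11, with 12 of 14 members below 0 and 7 under an unadjusted p of 0.05. Cox7b, a small subunit needed for assembly, had the smallest p of all members. It was at 97.8, 93.8, 102, 99.4 and 86.5 CPM in wild-type and 82.3, 82.8, 85.8, 86.4 and 85.3 CPM in knockout libraries, so the groups did not overlap, with the closest pair at 86.5 and 86.4 CPM. The difference was -0.18 (SE 0.05, adjusted p = 0.207 in edgeR). Cox5a, a matrix-side subunit, was at 79.9, 80.2, 79.1, 76.5 and 75.3 CPM in wild-type and 73.1, 66.5, 70.0, 73.4 and 67.5 CPM in knockout libraries, again without overlap, and differed by -0.16 (SE 0.04, adjusted p = 0.219 in edgeR). The main forms Cox4i1, Cox6a1 and Cox8a differed by -0.11 (SE 0.05), -0.18 (SE 0.06) and -0.21 (SE 0.07). The members above 0 were Cox4i2 at 0.26 (SE 0.28) and Cox6a2 at 0.13 (SE 0.19), both near 1 to 2 CPM.

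Complex V had a median of -0.14, with 17 of 17 members below 0 and 13 under an unadjusted p of 0.05. The 5 subunits of the catalytic F1 part had a median of -0.09, with 5 under that p, and the other 12 subunits a median of -0.14, with 8. With the length trend removed from each library the order turned, to -0.08 and -0.06. Atp5g1 was at 31.0, 26.9, 32.7, 30.4 and 28.3 CPM in wild-type and 27.8, 24.7, 24.4, 24.9 and 25.8 CPM in knockout libraries and overlapped through 1 library of each group. It differed by -0.23 (SE 0.06, adjusted p = 0.221 in edgeR). Atp5md, a small subunit known as DAPIT that helps ATP synthase form dimers, was at 29.0, 29.4, 28.7, 29.1 and 28.5 CPM in wild-type and 27.7, 24.7, 24.3, 25.6 and 25.7 CPM in knockout libraries. Its groups did not overlap, and it differed by -0.18 (SE 0.05, adjusted p = 0.230 in edgeR). Atp5b differed by -0.09 (SE 0.03, adjusted p = 0.278 in edgeR).

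The shift was set beside each library's trend with transcript length, because members are short, with a median exonic length of 711 nt against 2608 nt over all genes listed in cortex. The trend was the slope of a library's log2 levels, relative to the mean of the region's libraries, on log2 exonic length over all tested genes. In cortex the slope was -0.05, -0.03, -0.03, -0.04 and 0.04 in wild-type libraries 1 to 5 and -0.01, 0.04, 0.03, 0.03 and 0.03 in knockout libraries 1 to 5. The median over all members was 0.09, 0.07, 0.08, 0.11 and -0.06 in the wild-type and 0.05, -0.11, -0.09, -0.06 and -0.05 in the knockout libraries (log2, relative to the mean of the 10 libraries). The libraries with a positive slope, where long transcripts were relatively high, were thus those with low members, in both genotypes. Wild-type library 5 was the lowest wild-type library for 69 of 81 members, and knockout library 1 the highest knockout library for 59 of 81.

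**Figure D3:**
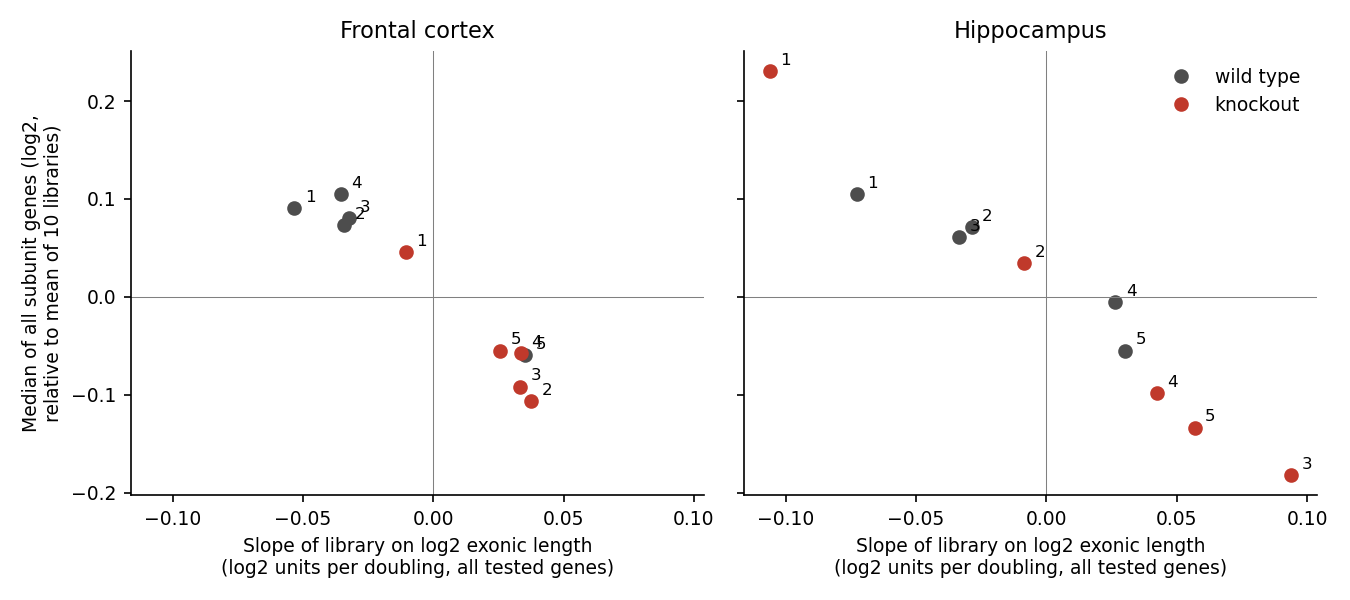
Median of all subunit genes in a library (log2, relative to the mean of the 10 libraries of its region) against the slope of that library's levels on log2 exonic length over all tested genes, with replicate numbers beside the points. In cortex, wild-type library 5 lies among the knockout libraries, and in hippocampus, knockout library 1 lies at the far end from the other knockout libraries.

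With each library's length trend removed before the test, the medians in cortex were -0.05 in complex I, -0.04 in complex II, -0.06 in complex III, -0.04 in complex IV and -0.07 in complex V, and 0 of 81 members passed, where 0.0337% of genes passed. Below 0 lay 72 of 81 members, against 50.5% of genes, and 14 were lower at an unadjusted p under 0.05, against 6.53% of genes. After removal, Ndufa13 differed by -0.17, Cox7b by -0.12, Cox5a by -0.08, Atp5md by -0.08 and Atp5g1 by -0.23, the last with the doubtful length given above. Without wild-type library 5, and with no removal of length, 13 of 82 members were called lower, where 1.15% of genes were called lower, and the median was -0.15. By prefix, these were Ndufa2, Ndufa4, Ndufa13 and Ndufb5 of complex I and Uqcrc1, Uqcr11 and Uqcrq of complex III. The others were Cox5a, Cox6a1, Cox6b1, Cox6c, Cox7b and Cox8a of complex IV, of which Ndufa4 is also now known as a subunit. With that library left out and the length trend removed, 0 of 82 members were called, where 0.402% of genes were called, and the median was -0.06. How much of the difference between genotypes belongs to the length trend was not tested, since length slope and genotype move together in these libraries.

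**Figure D4:**
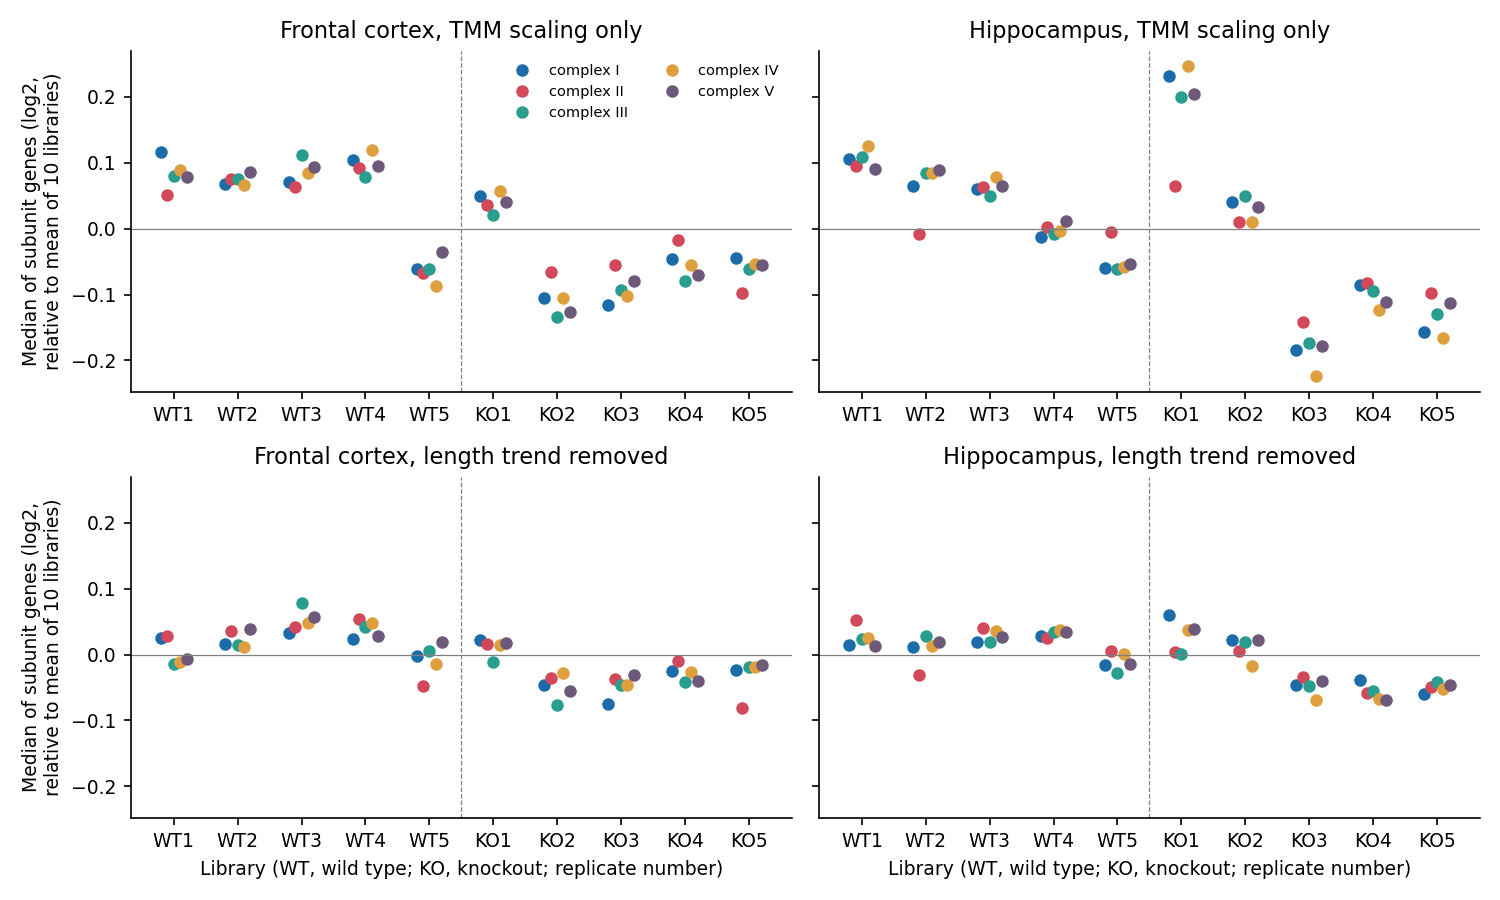
Median log2 level of the members of each complex in each library, relative to the mean of the 10 libraries of its region, before (top) and after (bottom) removal of the library's length trend. Before removal, complexes I, III, IV and V lie farthest above 0 in knockout hippocampus library 1 (0.20 to 0.25), whereas its complex II median is 0.07. After removal, the complex medians of all 20 libraries lie between -0.0818 (complex II, knockout cortex library 5) and 0.0787 (complex III, wild-type cortex library 3).

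In hippocampus 0 of 82 tested members passed between genotypes in edgeR's quasi-likelihood test, where 0.0266% of 15042 genes passed (4 genes). At an unadjusted p under 0.05 the count was 0 lower and 0 higher, where 1.18% of genes were lower and 2.6% higher, and DESeq2 and limma-voom called 0 as well. Below 0 lay 75 of the 82 members, with a median of -0.06, against 46.9% of genes and a median of 0.01. The medians were -0.06 in complex I, -0.07 in complexes II, III and IV and -0.05 in complex V. In 0 members did the groups separate in either direction, where 0.239% of genes had every knockout library below and 0.213% every knockout library above the wild-type libraries.

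The hippocampus values were spread by a few libraries. Sdhd, a membrane anchor of complex II with the smallest p of all members, was at 70.3, 71.1, 69.3, 68.6 and 63.9 CPM in wild-type and 68.1, 66.1, 59.4, 62.8 and 58.8 CPM in knockout libraries. The groups overlapped, and the difference was -0.11 (SE 0.05, adjusted p = 0.991 in edgeR). Atp5g1 differed by -0.14 (SE 0.07) and Cox8a by -0.14 (SE 0.09). Cox4i2 was at 1.01, 0.867, 0.842, 1.24 and 0.733 CPM in wild-type and 0.916, 0.387, 0.462, 0.850 and 0.739 CPM in knockout libraries and differed by -0.45 (SE 0.26). Ndufb4 stood above 0, at 0.26 (SE 0.15), with the limit on its counts given above. Ndufv1 differed by -0.09 (SE 0.06), Sdhb by -0.08 (SE 0.06), Uqcrc2, a core protein of complex III, by -0.05 (SE 0.04), Uqcrq, a small subunit near the quinone site, by -0.11 (SE 0.09), and Atp5b by -0.07 (SE 0.05).

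Knockout hippocampus library 1 stood apart from the other 4 knockout libraries. Its median over all members was 0.23, against 0.03, -0.18, -0.10 and -0.13 in libraries 2 to 5, and it was the highest knockout library for 74 of 82 members. Its slope on length was -0.11, against -0.01, 0.09, 0.04 and 0.06. In the wild-type libraries the medians were 0.10, 0.07, 0.06, -0.01 and -0.06 and the slopes -0.07, -0.03, -0.03, 0.03 and 0.03. Without knockout library 1 the median over members was -0.14, and 41 of 82 members were lower at an unadjusted p under 0.05, where 7.27% of genes were, with 0 members called (0.0199% of genes). With that library left out and the length trend removed, the median was -0.05 and 10 members were lower at that p, where 5.39% of genes were. With length removed and all 10 libraries kept, the medians were -0.03 in complex I, -0.05 in complex II, -0.04 in complexes III and IV and -0.02 in complex V, with 62 of 82 members below 0, against 50.3% of genes.

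Other cell types were measured beside these results. Choroid plexus and ependyma markers, 10 of 10 listed, summed in hippocampus to 196 to 3637 CPM (wild type) and 162 to 5508 CPM (knockout). Ttr, the most abundant choroid plexus transcript, was over 300 CPM in wild-type library 4 (1994 CPM), knockout library 2 (3106 CPM) and knockout library 4 (318 CPM). Without these 3 libraries the median over members was -0.07, and 0 of 82 members were called (0% of genes). In cortex, astrocyte markers, 10 of 10 listed, had sums of 7047 to 7995 CPM (wild type) and 6813 to 7085 CPM (knockout), and neuron markers of 11111 to 12523 and 10998 to 11504 CPM. Astrocyte markers were below 0 in 10 of 10 and neuron markers in 8 of 10, with medians of -0.12 and -0.07 (log2). Microglia markers were below 0 in 9 of 10, with a median of -0.10. Oligodendrocyte markers were below 0 in 3 of 10 and endothelial and mural markers in 4 of 10, with medians of 0.02 and 0.03. At an unadjusted p under 0.05, 3 astrocyte, 4 neuron, 3 microglia and 1 oligodendrocyte marker were lower, where 6.75% of all genes were. In hippocampus, astrocyte markers were below 0 in 9 of 10, with a median of -0.09 and 2 at that p, where 1.18% of genes were lower. Microglia markers were below 0 in 8 of 10, with a median of -0.06 and 1 at that p. Neuron markers were below 0 in 7 of 10 and endothelial and mural markers in 7 of 10, both with a median of -0.02. Oligodendrocyte markers were below 0 in 2 of 10, with a median of 0.05. The part of these cell types in the lower member values was not tested. Knockout cortex library 1 held Ttr at 207 CPM, against at most 1.76 CPM in the other cortex libraries, and the highest share of counts on the ribosomal precursor Rn45s, at 4.0%. Without it the median over members in cortex was -0.14, and 0 of 81 members were called (0.0268% of genes).

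The difference between the 2 genotype effects was itself tested over the 20 libraries, as an interaction term of genotype with region. It passed for 0 of 82 members and for 0 of 15310 genes (0%) in edgeR, and in DESeq2 for 1 gene that was no member. At an unadjusted p under 0.05 stood 1 member, where 1.4% of genes stood. This was Ndufb4, whose knockout effect was higher in hippocampus by 0.53 (log2, SE 0.21, adjusted p = 0.9998 in edgeR). The median interaction of the members was 0.05, with 19 of 82 below 0, where 50.9% of genes were, and 0 of 17 in complex V. No test was made of the difference between the medians of the 2 regions.

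Between regions, some members passed in each genotype. These fits treated all libraries as unpaired. Whether same-numbered libraries of the 2 regions share an animal was not tested, and calls with the replicate number as a block are given below. In wild type 13 of 81 members (16.05%) passed in edgeR between hippocampus and cortex, where 39.5% of 14849 genes passed. Of these, 9 were higher in hippocampus, where 18.8% of genes were, and 4 lower, where 20.7% were. In knockout 14 of 82 members (17.1%) passed, where 38.8% of 15032 genes passed, with 12 higher, where 19.2% of genes were, and 2 lower, where 19.6% were. Of the calls, 7 were shared, all in the same direction, which is 53.8% of the wild-type and 50% of the knockout calls.

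The member with the largest called region difference was Cox6a2, at 2.31, 2.16, 2.24, 2.35 and 1.56 CPM in wild-type cortex and 0.772, 1.01, 1.497, 1.27 and 1.51 CPM in wild-type hippocampus. The highest hippocampus library was below the lowest cortex library, which held for 14.8% of genes, and the difference was -0.81 (SE 0.20, adjusted p = 0.00600 in edgeR). In knockout it was at 1.74, 2.06, 2.58, 2.06 and 3.26 CPM in cortex and 1.18, 1.24, 0.924, 0.773 and 1.17 CPM in hippocampus, without overlap (14.9% of genes were lower in this way), with a difference of -1.13 (SE 0.21, adjusted p = 0.000678 in edgeR). Muscle markers, 7 of 10 listed, summed to 17.3 to 28.8 CPM in wild-type cortex, 14.8 to 20.6 in knockout cortex, 9.91 to 17.7 in wild-type hippocampus and 11.2 to 13.8 CPM in knockout hippocampus. The level of Myh7 led the list, and Myh6, Mb, Tnni2 and Mylpf were at 0 in some libraries. The part of muscle RNA, and of reads from the overlapping gene Itgad, in the Cox6a2 difference was not tested.

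Higher in hippocampus in both genotypes were 6 members. Ndufa10, an accessory subunit of complex I, was at 71.9 ± 1.93 CPM in wild-type cortex and 84.7 ± 3.70 in wild-type hippocampus, and at 68.8 ± 2.0 and 80.4 ± 6.87 CPM in knockout (SD, n = 5 each). Its libraries did not overlap in either genotype, which in this direction held for 14.5% and 14.7% of genes, and it differed by 0.23 (SE 0.04, adjusted p = 0.000621 in edgeR) and 0.23 (SE 0.06, adjusted p = 0.00681 in edgeR). Atp5b went from 767 ± 17.9 CPM in cortex to 854 ± 21.4 in hippocampus in wild type, and from 720.2 ± 22.7 to 810.4 ± 49.9 CPM in knockout, again without overlap, and differed by 0.15 (SE 0.03) and 0.17 (SE 0.05). Atp5o, the stalk subunit that confers oligomycin sensitivity, differed by 0.22 (SE 0.05) and 0.24 (SE 0.08), Atp5g1 by 0.20 (SE 0.06) and 0.29 (SE 0.08), Sdhd by 0.18 (SE 0.05) and 0.16 (SE 0.05), and Uqcrc2 by 0.14 (SE 0.04) and 0.18 (SE 0.04).

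**Figure D5:**
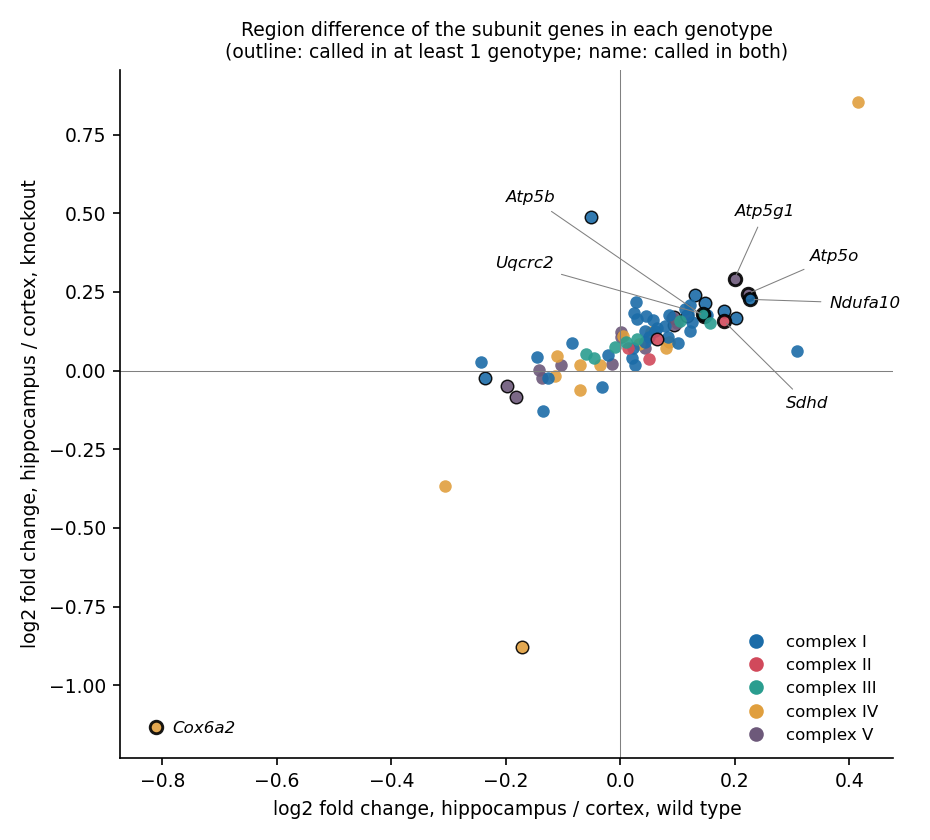
Log2 fold change of the subunit genes between hippocampus and cortex in wild type (horizontal) and in knockout (vertical), coloured by complex, with an outline where the gene passed in at least 1 genotype and its name where it passed in both. Cox6a2 lies far below 0 in both genotypes, and the other named genes lie between 0.14 and 0.29 in both.

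Passed in 1 genotype only were 6 wild-type and 7 knockout calls. The interaction test above called 0 members, but it also called 0 of 15310 genes, with 1.4% at an unadjusted p under 0.05. It therefore cannot settle whether these calls differ between genotypes. In wild type, Ndufs7, a core subunit with an iron-sulphur cluster, differed by 0.20 (SE 0.06), Ndufb8, an accessory subunit, by 0.18 (SE 0.05), Ndufb11, also accessory, by 0.15 (SE 0.05), Ndufs6, an accessory subunit that binds zinc, by -0.24 (SE 0.07), Atp5k, a subunit of the dimer interface, by -0.18 (SE 0.05), and Atp5mpl, a small membrane subunit, by -0.20 (SE 0.06). The call on Atp5mpl was lost without wild-type cortex library 2 (-0.18) or wild-type hippocampus library 4 (-0.18), and with total counts as the only scaling (-0.17). In knockout, Ndufb4 differed by 0.49 (SE 0.15) and Ndufa13 by 0.24 (SE 0.09). Cox4i2 differed by -0.88 (SE 0.30, adjusted p = 0.0354 in edgeR) and was at 1.22, 1.596, 1.48, 1.41 and 0.544 CPM in knockout cortex and 0.916, 0.387, 0.462, 0.850 and 0.739 CPM in knockout hippocampus. Endothelial and mural markers, 10 of 10 listed with 0 of them at 0 in any library, summed to 433 to 496 CPM in knockout cortex and 382 to 470 CPM in knockout hippocampus. The part of these cells, and of reads from the overlapping gene Bcl2l1, in the Cox4i2 difference was not tested.

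Several knockout region calls were lost when 1 library was left out. Without knockout cortex library 2, knockout cortex library 3 or knockout hippocampus library 2, 7 members were called in each case, and without knockout cortex library 5, 9 were. Over all genes, the fits with 1 library left out called 5122 to 5981 genes, against 5838 in the main fit. The Cox4i2 call was lost without any one of knockout cortex libraries 1 to 4 (-0.88, -0.78, -0.82 and -0.83) or of knockout hippocampus libraries 2 and 3 (-0.74 and -0.78). The Ndufa13 call was lost without any one of knockout cortex libraries 2 to 5 (0.23, 0.21, 0.23 and 0.26) or of knockout hippocampus libraries 1, 2 and 4 (0.18, 0.22 and 0.24), and in limma-voom (0.24, adjusted p = 0.0625). The Atp5o call was lost without knockout cortex library 2, 3 or 5 (0.24, 0.23 and 0.24) or knockout hippocampus library 2 (0.24), and the Ndufb4 call without knockout cortex library 3 (0.42). With the length trend removed, the differences of Sdhd (0.09) and Ndufa13 (0.16) no longer passed, and 18 members were called, where 40.9% of genes were. The median of complex IV moved from 0.02 to -0.03 under that removal, whereas the medians of complexes I, II, III and V remained above 0, at 0.08, 0.04, 0.04 and 0.06.

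Genes around the respiratory chain were read from lists of the same pathway, and 0 passed between genotypes in either region in edgeR. At an unadjusted p under 0.05 in cortex, where 6.75% of all genes were lower and 8.08% higher, 8 of 23 import and carrier genes, 4 of 44 assembly factors, 2 of 17 cycle genes, 1 of 4 subunits outside the symbol rule and 1 of 12 regulators were lower, and 1 regulator was higher. In hippocampus, where 1.18% of genes were lower and 2.6% higher, the counts were 2 cycle genes and 1 subunit outside the rule lower, and 1 regulator higher. Over all genes, 49.4% were below 0 in cortex and 46.9% in hippocampus. Of 4 subunits or partners outside the symbol rule, 4 were below 0 in cortex and 3 in hippocampus, with medians of -0.09 in both. The smallest p belonged to Atpif1, an inhibitor of the ATP synthase, in cortex (-0.10, SE 0.04) and to Ndufab1, the acyl carrier subunit of complex I, in hippocampus (-0.16, SE 0.07). Of 44 tested assembly factors, which build the complexes, 33 were below 0 in cortex and 32 in hippocampus, with medians of -0.07 and -0.03, and the smallest p was that of Cox10 (-0.16, SE 0.06) in cortex and Timmdc1 (-0.13, SE 0.07) in hippocampus. Of 17 genes of pyruvate oxidation and the tricarboxylic acid cycle, which supply the electrons, 15 and 14 were below 0, with medians of -0.07 and -0.04, and the smallest p in cortex was that of Mdh2 (-0.12, SE 0.04). Of 23 genes of mitochondrial import and carriers, 20 and 20 were below 0, with medians of -0.10 and -0.04, led by the adenine nucleotide carriers Slc25a5 (-0.10, SE 0.03) and Slc25a4 (-0.10, SE 0.05). Of 12 regulators of mitochondrial biogenesis, 5 and 2 were below 0, with medians of 0.02 and 0.05. Ppargc1b, a coactivator, had the smallest p in hippocampus (0.22, SE 0.09). Ppargc1a, its better-known relative, differed by 0.06 (SE 0.05) in cortex and 0.06 (SE 0.07) in hippocampus. Esrra, a nuclear receptor that activates respiratory chain genes, differed by -0.14 (SE 0.05, adjusted p = 0.266 in edgeR) in cortex and -0.01 (SE 0.06) in hippocampus.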

How the data were processed

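RNA was measured by sequencing in 20 libraries of flash-frozen tissue, total RNA extracted with an RNeasy Mini kit per the labels' protocols. STAR 2.7.3a, Partek and mm10 are named in the submitters' processing notes. Neither notes nor labels name the annotation, strand setting or filter. The deposited tables (17442 genes in cortex, 17586 in hippocampus, 17148 in both) hold expected counts made by the authors, of which 22.6% to 27.3% per library were not whole (tolerance 0.001). They were rounded to whole numbers. Each comparison used edgeR 4.0.16 (R 4.3.3) with filterByExpr, TMM and the quasi-likelihood F test, and Benjamini-Hochberg adjustment over all tested genes at 0.05. The standard error (SE) is the log2 fold change divided by the square root of F. Regions and the interaction used genes in both tables. The length trend was removed as an offset, from a lowess fit (span 0.3) of log2 CPM (prior count 2) on log2 exonic length in each library. Alternatives were DESeq2 1.42.0, limma-voom 3.58.1, other scalings, no filter, a replicate block, 1 fit of all 20 libraries, removal of Rn45s and each library left out. The fitting code was tested on simulated data. Figures and sequence matches used Python 3.11.15, pandas 2.3.3, numpy 2.4.6 and matplotlib 3.10.9.

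Members and gene lists were chosen with earlier results of these data known. Genes named with values were the 2 with the smallest p per complex and region, called members (up to 5 per direction between regions), paralogues, core subunits, the highest and lowest levels, members that failed the filter and the list member with the smallest p, of which 1 is not reported here. Cox5b and a few others under this rule are covered by the counts. Marker lists were read as summed CPM or, for brain cell types between genotypes, by the log2 fold changes of their genes. Depth limits the precision of members near 1 CPM, such as Cox4i2 and Cox6a2.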

Additional observations from a re-analysis of the deposited data

Results flagged for a closer look

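Among 176 groups of 5 libraries examined for a library far from the other 4, 14 were found, where chance gives about 1 in 20. In wild-type cortex, library 5 had the lowest median in each complex, at -0.0610 in complex I, -0.0680 in complex II, -0.0610 in complex III, -0.0865 in complex IV and -0.0359 in complex V (log2, relative to the region's mean), and the highest slope on transcript length, at 0.0354. The same library had the lowest Cox6a2, at 1.56 CPM, and the lowest Sdhc, at 58.9 CPM. In knockout cortex, library 1 had the lowest slope on length, at -0.0106. In wild-type hippocampus, library 5 had the lowest Atp5g3, at 126 CPM, and library 1 the highest Cox7b, at 100.9 CPM. In knockout hippocampus, library 1 had the highest Atp5k, Ndufa10 and Ndufv1, at 42.1, 92.1 and 117 CPM. These values are not independent, since they share libraries.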

How the results depend on the processing

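The counts of calls and the medians per complex were compared with the main fit across all alternatives run. Of these values, 311 with 1 library left out and 271 under other settings stayed within a set tolerance. A median stayed if it kept its sign and moved by less than the mean SD between libraries of a group. A count stayed if it was equal or changed by no more than a set factor. Medians could still move within that tolerance. With 1 library left out, the hippocampus genotype median of complex IV ranged from -0.171 to -0.0321, against -0.0705 in the main fit. In cortex between genotypes, DESeq2 called 3 members and 169 genes, and the fit of all 20 libraries called 7 genes. With the length trend removed, the cortex medians were -0.0650 in complex III, -0.0365 in complex IV and -0.0681 in complex V. With the replicate block added to that removal they were -0.0655, -0.0300 and -0.0700. With the union of exons as length they were -0.0464 in complex I, -0.0570 in complex III, -0.0298 in complex IV and -0.0560 in complex V. With wild-type library 5 left out and length removed they were -0.0705, -0.0354 and -0.0665 in complexes III, IV and V, with 60 genes called. In hippocampus, leaving out the 3 libraries with the most Ttr gave 0 genes called. The union of exons, the Ttr libraries and the combined settings were chosen after seeing the data. Between regions in wild type, 20 members were called with length removed, where 40.8% of genes were, against 39.5% in the main fit. Under the replicate block 25 members were called, and 22 with both. In knockout, 22 members were called with total counts and 22 with the replicate block. With that block Cox4i2 was at -0.859 (adjusted p = 0.0691 in edgeR) and no longer passed. With length also removed it was at -0.928 (adjusted p = 0.0551 in edgeR). The count of all genes called stayed within the tolerance above in each of these fits. The knockout median of complex IV turned from 0.0179 to -0.0304 with length removed, to -0.0396 with length removed and the replicate block, and to -0.0126 without knockout hippocampus library 1. The wild-type median of complex V turned from 0.0436 to -0.00377 without wild-type cortex library 5. For the interaction, DESeq2 called 1 gene. With each library left out in turn, the cortex genotype calls ranged from 0 to 13 members and from 4 to 563 genes, the largest both without wild-type library 5. The members called between regions in knockout ranged from 7 to 21, where the genes called over all genes ranged from 5122 to 5981. The knockout median of complex IV ranged from -0.0126 to 0.0928 and the wild-type median of complex V from -0.00377 to 0.0708. The genes called for the interaction ranged from 0 to 1. The cause was not tested. Same-numbered libraries did not all correlate above 0.1 in any comparison, so the numbers were not taken as pairs. Across regions in wild type, though, the correlations of numbers 1 to 5 were 0.183, 0.0993, 0.184, 0.112 and 0.380, so only number 2 fell below that cut. Each wild-type cortex library correlated best with the hippocampus library of its own number, and in 4 of 5 the reverse also held. Whether same-numbered libraries share an animal was not tested, and the main region and interaction fits treated all libraries as unpaired.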
